A study of Drosophila melanogaster with 22 samples.

Results

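The 7SL RNA of Drosophila heads was examined base by base in Psi-seq libraries, through the 299 positions that the termination data give for the gene 7SLRNA:CR32864 (FBgn0000003) on the plus strand of chromosome 3R. The span was fixed by coordinates and not by any measured value. Of the 299 positions, 285 were listed in at least 1 of 11 library pairs and 283 in all 11, out of 4183485 to 6165935 positions listed in a pair over the whole transcriptome. RNA came from heads of 1-day-old virgin females of 2 genotypes, the isogenic strain w1118 and RluA-2, which is homozygous for del-FRT, an allele that lacks the entire RluA-2 locus. Exp 1 held 3 replicates of w1118, and Exp 2 held 4 replicates of w1118 and 4 of RluA-2, each from 100 heads. All RNA samples went through 2 rounds of poly(A) enrichment, received a spike-in RNA and were split into an aliquot treated with CMC, a carbodiimide that remains bound to pseudouridine (Psi), and a mock-treated aliquot. A pair below is the CMC and the mock library of 1 RNA sample. A position was listed in a pair only where the CMC library had at least 1 termination, whatever the mock library had. The p-values of tests across replicates measure the spread between these RNA samples, each a pool of heads. Those of the calls within a pair do not.

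7SL is the RNA of the signal recognition particle, the complex that binds the signal peptide of a nascent secretory or membrane protein on the ribosome and docks it at the endoplasmic reticulum. Its Alu domain carries the proteins Srp9 and Srp14 and slows elongation, and its S domain carries Srp19, Srp68, Srp72 and the GTPase Srp54k, which holds the signal peptide. It is a transcript of RNA polymerase III without a poly(A) tail, so what is seen here is the part that came through poly(A) enrichment. In Psi-seq, reverse transcription stops 1 base 3′ of a base that holds CMC. A termination is therefore given below by the base next to the stop, and bases are numbered from 1 at the RefSeq start of the RNA. CMC is known to leave some adducts on other U and G as well, so a stop is a measurement of termination and not an identification of Psi.

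The sequence is shown because the strength of the stops follows the base. In genome Release 6 the RNA lies at chr3R:6822500-6822798, an exon of a noncoding gene with no UTR or coding part. The first 273 of its 299 bases, at chr3R:6822500-6822772, could be read from the flanks in the study's list of sites, and the last 26 were not used here. They hold 59 U, 95 G, 60 C and 59 A. The capitals mark the 34 uridines (written as T) that were called in all 7 w1118 pairs by the test described below.
7SLRNA:CR32864, bases 1 to 273: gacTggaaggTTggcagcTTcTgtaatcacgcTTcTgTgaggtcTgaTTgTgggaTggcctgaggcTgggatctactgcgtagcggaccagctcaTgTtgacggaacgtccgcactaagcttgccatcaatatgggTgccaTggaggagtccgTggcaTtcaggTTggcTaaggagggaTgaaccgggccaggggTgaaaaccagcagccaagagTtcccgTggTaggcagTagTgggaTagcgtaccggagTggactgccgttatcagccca

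The capitals are spread over the whole RNA but not evenly. Of the 16 uridines in bases 1 to 50, 13 are in capitals, while the 50 bases from 101 to 150 hold 2 capitals among 10 uridines. In bases 151 to 200, 7 of 8 uridines are capitals.

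Total gene counts ran from 12035142 to 30701799 per library, and 7SL took 59587 to 554550 inserts (sequenced fragments) of each. The RluA-2 gene itself had 6.43 ± 1.04 inserts per 1000000 gene counts in the CMC libraries of w1118 of Exp 2 and 1.32 ± 0.54 in those of RluA-2 (SD, n = 4 each), a log2 difference of -2.26 (SE 0.22, edgeR adjusted p = 2.88e-06). Inserts were counted over the whole gene span on the strand with more terminations, so introns and other transcripts there are included. In RluA-2 12 to 40 inserts were left in the span, and their source was not tested. Of the head markers, the rhodopsin gene ninaE, the photoreceptor channel gene trp, norpA, the neuronal gene elav and nSyb did not pass the test between the genotypes, and the arrestin gene Arr2 was lower in RluA-2 by a log2 difference of -0.19 (edgeR adjusted p = 0.0433). This Arr2 call was lost in all but 1 of 8 fits that left out a library.

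Coverage of 7SL was deep in every library and sloped toward the 5′ end after CMC. In Exp 2 the mean coverage in w1118 over bases 251 to 273 was 154032 inserts with CMC and 182960 with mock treatment, and over bases 1 to 50 it was 32315 and 133403. The corresponding means in RluA-2 were 69798 and 80023 over bases 251 to 273, and 25990 and 106359 over bases 1 to 50. Exp 1 was shallower, with 24416 CMC and 66214 mock inserts over bases 251 to 273 and 5658 and 52438 over bases 1 to 50. Mock coverage thus dropped less toward the 5′ end than CMC coverage in w1118 of both experiments, and in RluA-2 it was higher over bases 1 to 50 than over bases 251 to 273.

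**Figure D1:**
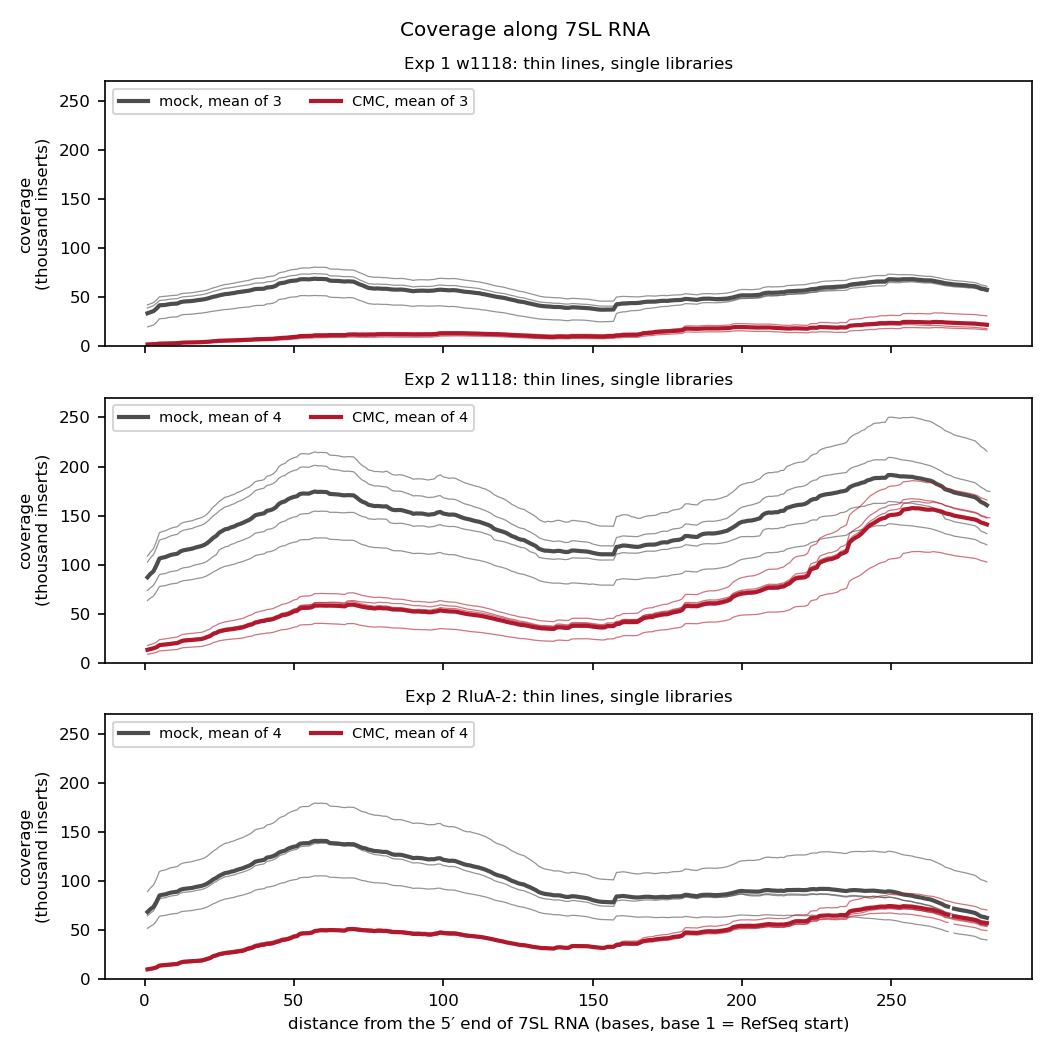
Coverage (inserts, in units of 1000, y axis) against the distance from the 5′ end of 7SL RNA (bases, x axis) in the 3 groups, with a thin line for each library and a thick line for the mean of the group (gaps where a library does not list the position). CMC coverage of w1118 in Exp 2 falls from a mean of 154032 over bases 251 to 273 to 32315 over bases 1 to 50, while mock coverage keeps 133403 of 182960.

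Inserts that reached the 5′ end of the RNA were a large class in mock libraries and a small one after CMC. In mock libraries of w1118, 21.8, 12.7 and 21.8% of the 7SL inserts of Exp 1 and 19.4, 19.6, 20.4 and 21.4% of those of Exp 2 were full length at the 5′ end. After CMC the shares were 3.73, 2.36 and 2.37% in Exp 1 and 4.02, 4.34, 5.33 and 4.05% in Exp 2. In RluA-2 they were 24.3, 25.9, 23.5 and 24.5% with mock treatment and 4.21, 6.04, 5.12 and 5.72% with CMC. The CMC and mock libraries did not overlap in any group, and the mean difference within pairs was -15.9 ± 4.9 points in Exp 1 (SD, n = 3), -15.8 ± 1.0 in Exp 2 w1118 and -19.3 ± 0.82 in RluA-2 (SD, n = 4 each).

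Uridines took a larger share of the CMC stops inside the RNA than of the mock stops. In w1118 of Exp 2, 42.0, 40.1, 38.0 and 42.8% of the internal CMC terminations lay next to a U, against 27.5, 29.7, 27.5 and 27.3% of the mock terminations of the same RNA samples. The shares were 41.0, 52.5 and 44.4% against 26.7, 26.1 and 26.3% in Exp 1, and 43.7, 42.4, 42.5 and 41.8% against 28.8, 29.7, 29.7 and 29.6% in RluA-2. The CMC share was the higher in 11 of 11 pairs.

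The termination ratio is the terminations at a position as a percent of its coverage, and the termination fold change is the CMC ratio divided by the mock ratio, as a log2. At the 59 uridines of w1118 in Exp 2, the median CMC ratio was 3.27 ± 0.33% and the median mock ratio 0.977 ± 0.065% (mean of the medians of 4 pairs, SD). The median fold change at uridines was 1.68 ± 0.14 in Exp 2, 1.99 ± 0.25 in Exp 1 (n = 3) and 1.79 ± 0.06 in RluA-2 (n = 4). Guanosines followed, with medians of 1.13 ± 0.19, 1.26 ± 0.27 and 1.18 ± 0.03 in the same order. At guanosines of w1118 in Exp 2 the CMC ratio was 1.24 ± 0.10% and the mock ratio 0.567 ± 0.041%, so the ratios themselves were lower than at uridines with both treatments. Adenosines had median fold changes of 0.64 ± 0.13, 0.45 ± 0.33 and 0.63 ± 0.05, and cytidines 0.27 ± 0.08, 0.31 ± 0.36 and 0.39 ± 0.09. The order U, G, A, C held for the means of each group, but the adenosine and cytidine medians of Exp 1 overlapped between pairs.

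**Figure D2:**
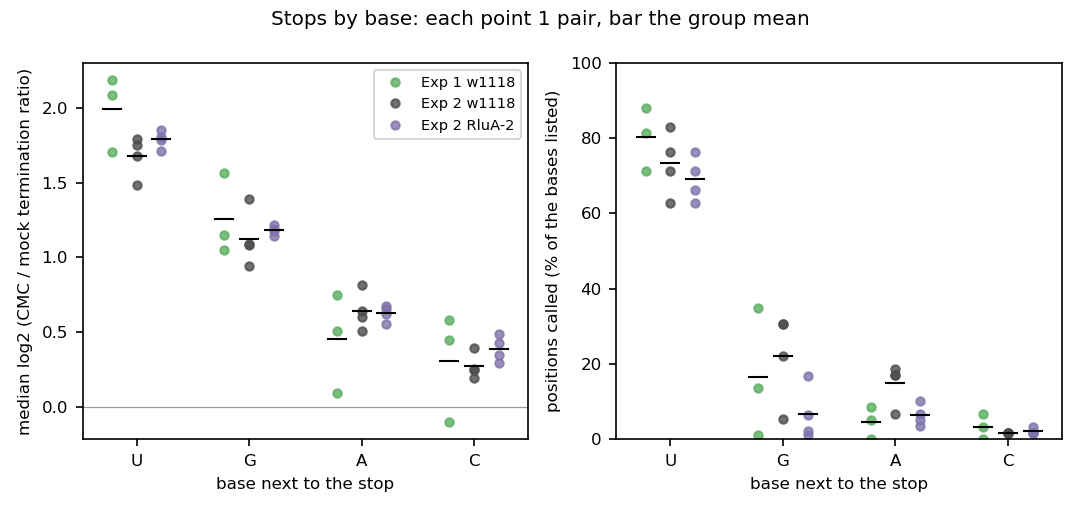
Median termination fold change (log2, CMC over mock, left, y axis) and percent of the bases called in a pair (right, y axis) by the base next to the stop (x axis). Each point is 1 pair and each bar the mean of a group, and uridines lie highest in both panels, at a mean fold change of 1.68 to 1.99.

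**Figure D3:**
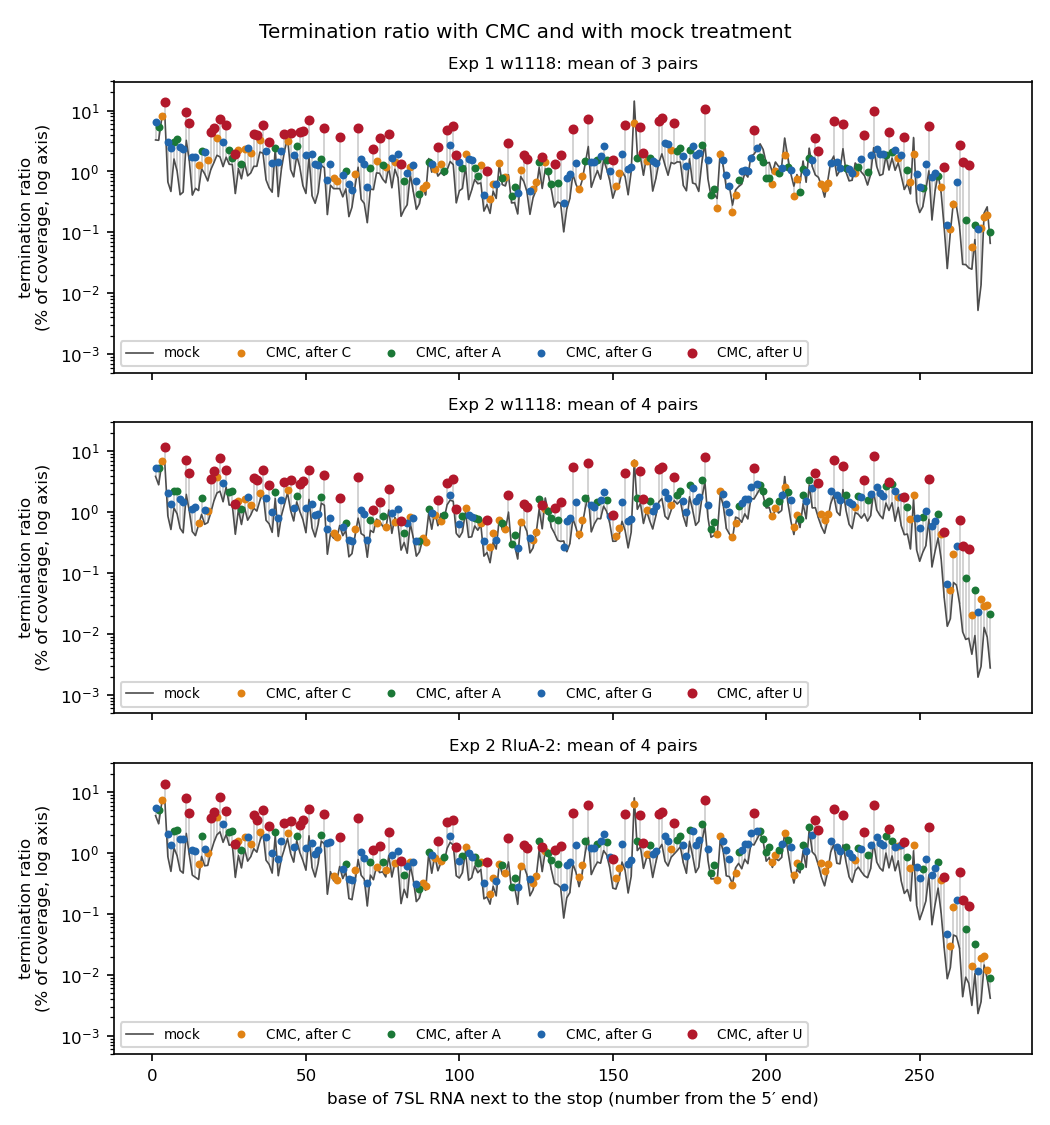
Termination ratio (percent of coverage, log axis) along the known 273 bases of 7SL RNA (x axis, base next to the stop) as the mean of 3 or 4 pairs in each group. Points are CMC ratios by base, the line is the mock ratio and grey bars join the 2, and uridines stand highest above the line in all 3 groups.

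Positions were called within each pair with the one-sided test of 2 proportions of the CMC against the mock ratio, at an adjusted p under 0.05 over all positions tested in that pair. A position was tested only with at least 5 CMC reads terminating, at least 5 continuing and a CMC ratio already above the mock ratio. The percentages of all positions given with these calls are shares of positions selected in this way, and the p-values do not take the selection into account. The test compares the libraries of 1 RNA sample and holds no spread between samples. Its variance has 1 over the mock coverage in place of the binomial term of the mock library, which makes it stricter than a test on counting error alone. On 7SL it called 60, 49 and 94 positions in the pairs of Exp 1, where 0.527, 1.13 and 0.864% of all positions tested were called. In w1118 of Exp 2 it called 89, 82, 47 and 78 positions, against 0.537, 0.305, 0.28 and 0.347% of all positions. In RluA-2 the counts were 69, 41, 53 and 45, against 0.446, 0.22, 0.324 and 0.258%. The share of 7SL called was thus far above the background of each pair, on an RNA that is also far more deeply covered than most positions.

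Calls in both experiments, from 1 or more w1118 pairs of each, were made at 71 positions of 7SL, where 0.494% of all positions tested in both had such calls. They were 46 of the 59 uridines, 21 of the 95 guanosines, 3 of the 59 adenosines and 1 of the 60 cytidines. In all 7 w1118 pairs 35 positions were called, the 34 uridines in capitals above and the guanosine at base 176. In RluA-2, 72 positions were called in at least 1 pair, with a background of 0.238%, and 46 of these were uridines, 17 guanosines, 7 adenosines and 2 cytidines. The calls of both genotypes shared 63 positions, which are 88.7% of the w1118 calls and 87.5% of the RluA-2 calls. All 34 uridines in capitals were also called in the 4 RluA-2 pairs. With 1 pair left out, w1118 had 60 to 71 called positions and RluA-2 53 to 72.

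These counts depend on the variance. With the pooled variance of an ordinary test of 2 proportions, 240 positions of 7SL were called in both experiments, where 32.9% of all positions tested were, and they were all 59 uridines, 92 guanosines, 47 adenosines, 34 cytidines and 8 positions of unknown base. In RluA-2 it called 265 positions in at least 1 pair, against 26% of all positions, with 59 uridines, 95 guanosines, 57 adenosines and 46 cytidines among them. With the pooled variance and the coverage of each position of 7SL limited to 1000 at the same ratios, 77 positions were called in w1118, of which 50 were uridines and 23 guanosines, and 76 in RluA-2, of which 49 were uridines and 19 guanosines.

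The test across replicates used limma on the fold changes of all 11 pairs, for 281 positions of 7SL with a coverage of at least 100 in the 22 libraries. Positions fitted had to be listed in all 11 pairs and so had a CMC termination in each, which selects them on the CMC side. The CMC ratio rose at 179 positions in Exp 1, 197 in Exp 2 w1118 and 202 in RluA-2, where 39, 38.4 and 34.6% of all positions fitted rose. It fell at 6, 0 and 0 positions, against 2.89, 1.51 and 1.6% of all positions. The median fold change over 7SL was 1.03, 1.01 and 1.01 in the 3 groups, beside 0.66, 0.61 and 0.54 over all positions. All 59 uridines rose in each group, and 70 of 94 guanosines, 15 of 59 adenosines and 4 of 60 cytidines rose in all 3. With each pair centred on its own median over all positions, the counts of raised positions were 106, 98 and 124. The shares of all positions with centred pairs were not set beside these.

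The 6 positions that fell in Exp 1 were the cytidines at bases 157, 202, 206 and 248 and the adenosines at 198 and 199. They were a smaller share of 7SL than the 2.89% of all positions that fell, so their number is not a trait of this RNA. Base 157 was the strongest internal stop of mock libraries. Its mock ratio was 14.3 ± 9.2% in Exp 1 (n = 3), 7.23 ± 0.71% in w1118 of Exp 2 and 8.06 ± 0.60% in RluA-2 (SD, n = 4 each), and its CMC ratio was 6.34 ± 1.12, 6.41 ± 0.81 and 6.42 ± 0.74%. The stop next to cytidine 157 was thus present with and without CMC. The CMC ratio was called lower in Exp 1, where the replicates spread widely (log2 -1.01, limma adjusted p = 0.00820), and was not called in Exp 2.

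The 5 uridines with the highest fold change among those called in all 7 w1118 pairs are shown with 10 bases on each side, the uridine in capitals, because each is followed by a G.
Uridine 49: gaggtctgatTgtgggatggc
Uridine 67: ggcctgaggcTgggatctact
Uridine 137: tcaatatgggTgccatggagg
Uridine 154: gaggagtccgTggcattcagg
Uridine 253: cgtaccggagTggactgccgt

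Uridine 154 had the highest fold change of them. Its CMC ratio was 5.22, 4.43, 3.71 and 4.60% in w1118 of Exp 2 and 3.65, 8.22 and 5.37% in Exp 1, and its mock ratio was 0.499, 0.466, 0.494 and 0.554% and 0.672, 1.08 and 0.712%. In RluA-2 the CMC ratio was 4.82, 4.24, 3.93 and 4.30% and the mock ratio 0.473, 0.494, 0.519 and 0.596%. CMC and mock libraries did not overlap in any group, and the fold change was 3.15 in w1118 of Exp 2 (SE 0.20, limma adjusted p = 2.78e-07) and 3.06 in RluA-2.

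Uridine 137 came next. Its CMC ratio was 5.68, 5.40, 4.74 and 6.01% in w1118 of Exp 2, 4.59, 4.17, 4.97 and 4.66% in RluA-2 and 3.49, 6.93 and 4.57% in Exp 1, with mock ratios of 0.566 to 1.13% over the 11 pairs. The fold change in w1118 of Exp 2 was 2.79 (SE 0.20, limma adjusted p = 8.00e-07). Uridines 67, 253 and 49 had fold changes of 2.22, 2.21 and 2.12 there. At uridine 253 the CMC ratio of w1118 in Exp 2 ran from 2.41 to 4.64% and the mock ratio from 0.526 to 1.16%, and in RluA-2 from 2.28 to 3.37% and from 0.288 to 0.561%.

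The uridines with the highest CMC ratios were others. Uridine 4, the first of the RNA, stopped 12.8, 12.1, 10.7 and 12.4% of the CMC coverage in w1118 of Exp 2, but also 6.61, 6.40, 6.66 and 6.36% of the mock coverage. Its CMC ratio was 14.7, 12.7, 13.9 and 12.5% in RluA-2 and 10.1, 17.5 and 13.4% in Exp 1, with mock ratios of 7.09 to 8.35% in RluA-2 and up to 13.5% in Exp 1. The fold change at uridine 4 was therefore small, at 0.88 in w1118 of Exp 2 (SE 0.22, limma adjusted p = 0.00546), and it was 0.26 (adjusted p = 0.382) when each pair was centred on its median. Bases 2 and 3 beside it also stopped a large part of the coverage with both treatments, with 5.25 ± 0.34% CMC and 2.82 ± 0.04% mock at base 2 and 6.93 ± 0.36% and 6.14 ± 0.23% at base 3 (w1118 of Exp 2, SD, n = 4).

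Uridines 235, 180, 22 and 222 had CMC ratios of 8.36, 8.19, 7.71 and 7.33% in w1118 of Exp 2 as means of 4 pairs.
Uridine 22: tggcagcttcTgtaatcacgc
Uridine 180: taaggagggaTgaaccgggcc
Uridine 222: agagttcccgTggtaggcagt
Uridine 235: taggcagtagTgggatagcgt

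These 4 are also followed by a G. Uridine 235 stopped 9.48, 8.27, 7.04 and 8.67% of the CMC coverage and 2.42, 1.96, 2.20 and 2.09% of the mock coverage in w1118 of Exp 2, and 7.14, 5.28, 6.27 and 5.55% against 1.60, 1.21, 1.56 and 1.61% in RluA-2. The mock ratios of the genotypes do not overlap and the CMC ratios overlap slightly, and the fold changes were 1.95 and 2.02. Uridine 180 had the highest mock ratio of the 4, at 2.43 to 3.46% in w1118 of Exp 2, and a fold change of 1.39 (SE 0.22, limma adjusted p = 0.000261). At uridine 22 the fold change in w1118 of Exp 2 was 1.80 and at uridine 222 it was 1.95. Uridine 222 stopped 7.77, 7.13, 6.31 and 8.10% of the CMC coverage in w1118 of Exp 2 and 5.61, 4.75, 5.34 and 5.24% in RluA-2. Its mock ratios were 1.74 to 2.05% and 1.23 to 1.55%. Neither ratio overlapped between the genotypes, and the fold change of uridine 222 in RluA-2 was 1.92.

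The base after a uridine went with how often it was called. Of the 26 uridines followed by a G, 20 were called in all 7 w1118 pairs, as were 8 of the 10 followed by a U, 4 of the 11 followed by an A and 2 of the 12 followed by a C. Their median CMC ratios in w1118 of Exp 2 were 4.20, 3.62, 1.90 and 1.48% in that order. Fold changes differed less, with medians of 1.74, 1.77, 1.41 and 1.54, since the mock ratio also differed, from 1.09% before G to 0.568% before C. In Exp 1 the order was another, with medians of 2.08, 1.93, 2.17 and 1.78, and no test was made of these classes.

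The 13 uridines that were not called in both experiments, except with the pooled variance, lie at bases 72, 81, 99, 109, 121, 122, 127, 131, 150, 160, 258, 264 and 266. All rose in w1118 of Exp 2 by limma, as did every other uridine. Their CMC ratios were low, from 0.248 to 1.65% in w1118 of Exp 2, and overlap with the lowest of the 46 called uridines, which ran from 0.757 to 12.0%. The first 10 had fold changes of 1.12 to 1.76 in w1118 of Exp 2. The last 3, near the 3′ end, had higher fold changes of 3.68, 4.69 and 4.61, at mock ratios of 0.0391, 0.0109 and 0.00854%. At base 266, the last uridine known, the files list 375, 695, 151 and 236 CMC terminations and 27, 12, 11 and 13 mock terminations in w1118 of Exp 2, and 145, 57, 75 and 102 against 3, 1, 6 and 11 in RluA-2. A listed value is 1 above the count, so RluA-2 replicate 2 had no mock termination there, and the fold changes of the 3′ end rest on few mock inserts. Uridine 263 beside them was called in 5 of 7 w1118 pairs and in no RluA-2 pair, with a CMC ratio of 0.757 ± 0.473% in w1118 of Exp 2 and 0.491 ± 0.112% in RluA-2 (SD, n = 4 each). Of the 71 positions called in both experiments, 8 were called in no RluA-2 pair. Limma called no difference between the genotypes at uridine 263 or at any other position of 7SL.

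Among the other bases, guanosine 176 alone was called in all 7 w1118 pairs.
Guanosine 176: tggctaaggaGggatgaaccg

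It lies 4 bases before uridine 180. Its CMC ratio was 2.56, 2.44, 2.57 and 2.51% in w1118 of Exp 2, 2.30, 2.30, 2.24 and 2.34% in RluA-2 and 2.35, 2.77 and 2.81% in Exp 1. The mock ratios were 1.16, 0.867, 1.21 and 1.15%, 0.987, 0.824, 0.866 and 0.954%, and 0.595, 0.773 and 0.572%. The fold change was 1.21 in w1118 of Exp 2 (SE 0.21, limma adjusted p = 0.000628) and 0.60 (adjusted p = 0.0529) with each pair centred on its median. The adenosines called in both experiments were at bases 2, 7 and 8 and the cytidine at base 21, all near the 5′ end. Of the 21 guanosines called, 11 also lay in bases 1 to 52 and the other 10 between bases 167 and 252.

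The w1118 profiles of both experiments were set against each other. The mean fold changes of Exp 1 and Exp 2 had a Pearson r of 0.74 across 272 positions of known base listed in all pairs, and the log2 mean CMC ratios had an r of 0.91. Positions of 1 RNA share their libraries and are not independent replicates. No position of 7SL differed between Exp 2 and Exp 1 by limma after adjustment, nor did any other position (0% called), and 74 positions of 7SL had an unadjusted p under 0.05, of which 37 were higher and 37 lower in Exp 2. At the uridines the median difference, Exp 2 minus Exp 1, was -0.35. Of the 59 uridines 15 were higher in Exp 2, beside 129 of all 281 positions of 7SL fitted. With a coverage of at least 1000 required, 8 positions of 7SL were called between the experiments. The shares of all positions were not set beside the 74 and the 8. These 2 counts therefore do not show whether 7SL differed from other RNAs. Experiment is a batch, so what differs between them cannot be told apart.

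The comparison of RluA-2 with w1118 asked whether stops on 7SL depend on this pseudouridine synthase. In the limma fit of all 11 pairs, the contrast of the 8 pairs of Exp 2 by genotype called no position of 7SL. It called no other position either (0% called), and the lowest adjusted p on 7SL was 1.00. The differences of the log2 fold change, RluA-2 minus w1118, ran from -1.71 to 1.20 with a median of 0.07 and a median SE of 0.31. A p that misses the threshold does not show that the genotypes act alike. At the 59 uridines the differences lay between -0.49 and 0.70 with a median of 0.11. Of these uridines 48 were higher in RluA-2, beside 189 of all 281 positions of 7SL fitted. The median mock ratio at uridines was 0.770 to 0.835% in RluA-2 and 0.908 to 1.05% in w1118, without overlap. This was not particular to uridines. The mock medians were 0.450 to 0.501% against 0.508 to 0.604% at guanosines and 0.690 to 0.803% against 0.871 to 0.949% at adenosines. At cytidines they were 0.462 to 0.503% against 0.620 to 0.652%. The median CMC ratios at uridines, 2.87 to 3.37% and 2.78 to 3.48%, overlapped. At the named uridines the differences were -0.09 for uridine 154 (SE 0.28), 0.01 for 137 (SE 0.28), 0.07 for 235 (SE 0.31), 0.03 for 180 (SE 0.30) and -0.07 for 4 (SE 0.31). The fold changes of both groups overlapped at each of these 5 uridines. The largest of the named uridines was 253, at 0.45 (SE 0.35, exact permutation test over 4 against 4 pairs p = 0.114, adjusted p = 0.536 over 15 named positions). The mean fold changes of both genotypes had a Pearson r of 0.93 across the 272 positions and the log2 mean CMC ratios 0.98.

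Only 6 positions had an unadjusted p under 0.05 between the genotypes, and all were lower in RluA-2. They were base 270, a C, base 273, an A, and the numbers 274, 275, 277 and 280, whose bases were not known. The 3 largest differences were -1.71 at 273 (SE 0.68), -1.66 at 280 (SE 0.50) and -1.58 at 275 (SE 0.55). CMC ratios there were under 0.1% in every library of Exp 2, and at base 273 the files list 16, 4, 1 and 1 mock terminations in w1118 and 1, 2, 2 and 5 in RluA-2. At base 280 the exact permutation test gave p = 0.0286, the smallest that 4 against 4 allows, and an adjusted p of 0.429. Base 280 was picked from the 281 positions fitted for this same difference, and neither p takes that choice into account.

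**Figure D4:**
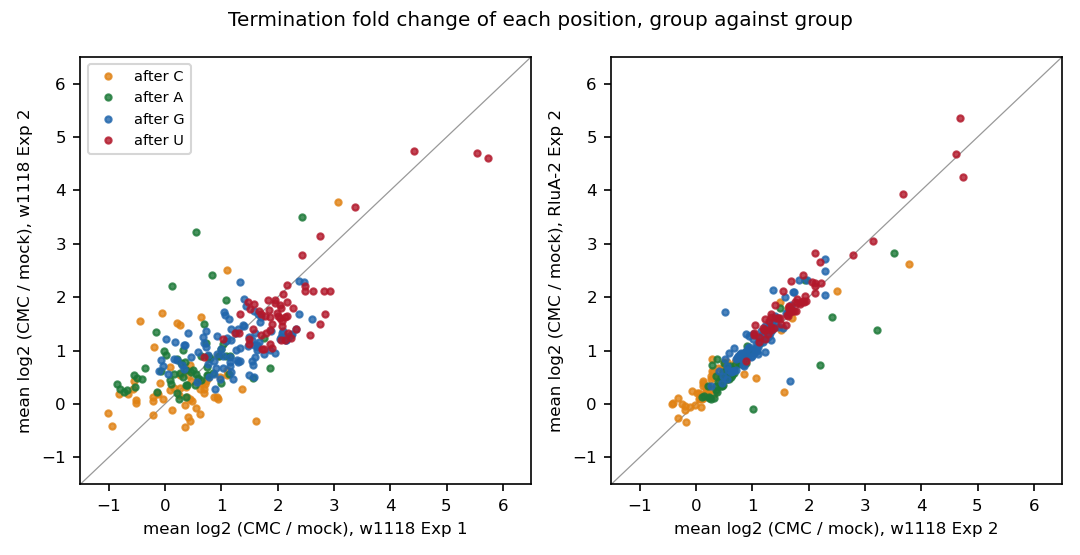
Mean termination fold change (log2, CMC over mock) of each 7SL position listed in all 11 pairs, in w1118 of Exp 2 against w1118 of Exp 1 (left) and in RluA-2 against w1118 of Exp 2 (right), coloured by base, with the line of equality. Points lie closer to the line between the genotypes (r 0.93) than between the experiments (r 0.74).

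Coverage along the RNA sloped less in RluA-2 than in w1118 of Exp 2, with no overlap between the libraries, although the adjusted p missed the threshold. Mock coverage at number 10 as a percent of that at number 250 was 55.1, 56.9, 57.1 and 62.3% in w1118 of Exp 2 and 87.8, 111, 102 and 106% in RluA-2, and 72.8, 46.0 and 70.7% in w1118 of Exp 1. The CMC values were 12.5, 13.4, 14.3 and 11.8% in w1118 of Exp 2, 16.0, 24.2, 20.6 and 22.3% in RluA-2 and 17.3, 10.7 and 13.4% in Exp 1. The genotypes of Exp 2 did not overlap with either treatment, by 43.9 points with mock treatment and 7.73 with CMC (exact two-sided permutation test p = 0.0286 each, the smallest that 4 against 4 allows, adjusted p = 0.0743 over 13 comparisons). The full-length share of mock libraries was 4.34 points higher in RluA-2 (same exact p and adjusted p), and that of CMC libraries 0.84 points (exact p = 0.2). The highest mock coverage lay at numbers 57 to 61 in the 4 RluA-2 libraries and at 249 to 250 in the 4 of w1118 of Exp 2, but at 57 in 2 of the 3 mock libraries of Exp 1. RNA quality and fragment length could not be compared here, and their part was not tested.

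The level of 7SL was taken as its inserts per 1000000 gene counts. In mock libraries it was 18062, 19546, 25614 and 21699 in w1118 of Exp 2 and 16610, 16273, 13121 and 14105 in RluA-2, and 8669, 8455 and 13768 in w1118 of Exp 1. All 4 RluA-2 libraries lay below all 4 of w1118 of the same experiment, and all 3 of Exp 1 below both except that 13768 exceeded 1 RluA-2 library. With the inserts set among the gene counts in edgeR, 7SL fell in RluA-2 by 0.46 on the log2 scale (SE 0.11, adjusted p = 0.00808), where 12.9% of all genes fell, and it fell in each of 8 fits that left out a library. In CMC libraries the values were 11890, 15140, 20370 and 15508 in w1118 of Exp 2 and 10655, 8249, 9331 and 8813 in RluA-2, a log2 difference of -0.75 (edgeR adjusted p = 0.00166, with 12.3% of all genes lower). In heads, a different make-up of cells and less 7SL per cell cannot be told apart. Neither can be told from a different carry-over of 7SL through poly(A) enrichment.

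Ribosomal RNA, another RNA that poly(A) enrichment should remove, was counted beside these values. Inserts of rRNA per 1000000 gene counts had log2 differences, RluA-2 minus w1118 of Exp 2, of -0.34 in mock libraries and -0.47 in CMC libraries (exact permutation p = 0.257 and 0.2). Per 1000 rRNA inserts, mock libraries had 26.6, 24.9, 17.3 and 26.8 inserts of 7SL in w1118 of Exp 2 and 21.7, 20.8, 22.6 and 19.9 in RluA-2. These overlap, and the log2 difference was -0.15 (exact permutation p = 0.4). The part of poly(A) enrichment in the lower level was not tested beyond this. The w1118 level itself differed between the experiments, with a log2 difference of 1.07, Exp 2 minus Exp 1, in mock libraries (exact permutation p = 0.0571, the smallest that 4 against 3 libraries allow). It was 1.10 per 1000 rRNA inserts (exact permutation p = 0.0571).

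**Figure D5:**
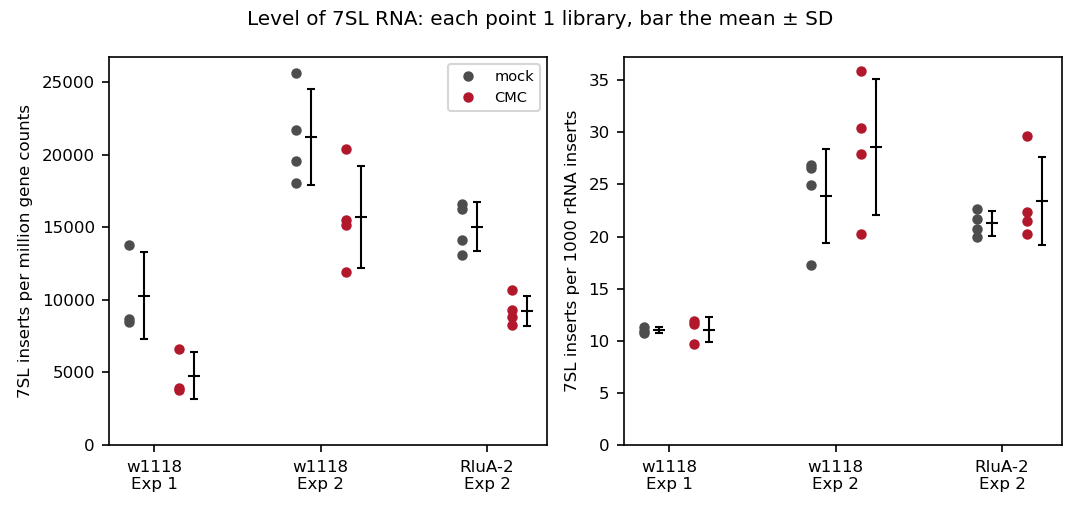
Level of 7SL RNA as inserts per 1000000 gene counts (left, y axis) and per 1000 rRNA inserts (right, y axis) in the 3 groups (x axis), with a point for each library and bars for the mean ± SD (n = 3 or 4). In Exp 2 the mock libraries of RluA-2 (13121 to 16610) lie below those of w1118 (18062 to 25614) per 1000000 gene counts and overlap with them per 1000 rRNA inserts.

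CMC libraries held less 7SL than their mock partners. The log2 of CMC over mock inserts per 1000000 was -1.20, -0.35 and -1.81 in the pairs of Exp 1, -0.60, -0.37, -0.33 and -0.48 in w1118 of Exp 2 and -0.64, -0.98, -0.49 and -0.68 in RluA-2, so it was below 0 in 11 of 11 pairs. By edgeR with the replicate as a block the differences were -1.13 (adjusted p = 0.0249), -0.45 (5.30e-07) and -0.72 (2.45e-09), where 12.1, 16.3 and 16.9% of all genes fell. In Exp 1 the call was lost without replicate 1 (adjusted p = 0.0518). Replicates 2 and 3 of Exp 1 did not deviate together with their partners of the same number, so their values by pair, and the SDs over the pairs of Exp 1, rest on the labelled numbers alone. Without the block the differences were -1.12 (adjusted p = 0.0212), -0.44 (0.0753) and -0.72 (0.000526), so the call of w1118 in Exp 2 was lost. Against rRNA the direction was not kept, with mean log2 CMC over mock of 0.00, 0.25 and 0.12 per 1000 rRNA inserts.

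The deposited gene count of 7SL holds only a small remainder of these inserts, 131 to 795 per library. Read pairs with several places in the genome were not counted, and a second gene, 7SLRNA:CR42652 (FBgn0261504), lies nearby. Whether this makes the count small was not tested. The second gene had the higher gene count but fewer inserts in every library. In mock replicate 1 of w1118 in Exp 2 it had 2627 counts against 601 and 7402 inserts against 554550. The 21 bases around uridine 180 are the same in both genes, so inserts cannot be safely divided between them. In mock libraries of Exp 2 the gene counts of 7SLRNA:CR32864 were 601, 459, 324 and 299 in w1118 and 358, 131, 252 and 244 in RluA-2, or 19.6, 24.0, 26.9 and 13.6 against 16.3, 10.8, 12.1 and 12.4 per 1000000. The groups overlap, and the count fell in RluA-2 by 0.63 on the log2 scale (SE 0.19, edgeR adjusted p = 0.0273, with 12.6% of all genes lower), a call that held in 3 of 8 fits that left out a library. In CMC libraries the difference was -0.48 (adjusted p = 0.176). FBgn0261504 fell by 0.35 (SE 0.11, edgeR adjusted p = 0.0318).

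Between treatments the gene count went the other way from the inserts. With CMC it was higher than with mock treatment by log2 differences of 0.53 in Exp 1 (edgeR adjusted p = 0.0746), 0.65 in w1118 of Exp 2 (0.000652) and 0.81 in RluA-2 (1.27e-06), where 12, 14 and 15.2% of all genes rose. By DESeq2 the difference in w1118 of Exp 2 missed the threshold (adjusted p = 0.0789), and with the counts of both 7SL genes added it was 0.27 in w1118 of Exp 2 and in RluA-2 (edgeR adjusted p = 0.0162 and 0.00593) and -0.027 in Exp 1 (0.936). It is thus the level by inserts, and not the gene count, that fell with CMC. Between the experiments the mock gene count per 1000000 was higher in Exp 2 by 1.00 on the log2 scale (exact permutation p = 0.114).

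The proteins that work with 7SL were followed through the CMC inserts of their gene spans, between the 4 RluA-2 and 4 w1118 libraries of Exp 2. As for the RluA-2 gene, these spans take in introns and other transcripts on the strand counted. Of 16 genes listed, TRAM had no insert and 15 were tested by edgeR, and 7 of these were lower and 1 higher in RluA-2, where 11.7% of all genes were lower and 9.09% higher. None of the 6 proteins of the particle passed the test. The Alu-domain genes Srp9 and Srp14 had log2 differences of 0.04 (SE 0.12) and -0.07 (SE 0.08), and the S-domain genes Srp19, Srp54k, Srp68 and Srp72 had -0.04, -0.11, 0.13 and -0.05 (SE 0.05 to 0.10).

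The genes of the Sec61 channel, through which the nascent chain enters the endoplasmic reticulum, fell together. Sec61alpha, the pore itself, had 147 ± 9.6 inserts per 1000000 in w1118 and 111 ± 10.5 in RluA-2 (SD, n = 4 each), with ranges of 139 to 160 and 99.8 to 123 that do not overlap. It fell by 0.37 on the log2 scale (SE 0.07, edgeR adjusted p = 0.00108). Sec61beta had 130 to 162 and 100 to 124 inserts per 1000000 and fell by 0.35 (adjusted p = 0.00298), and Sec61gamma had 44.2 to 55.1 and 29.1 to 40.1 and fell by 0.41 (adjusted p = 0.00472). In Exp 1, w1118 had 107 to 121, 99.3 to 132 and 41.1 to 53.2 for the 3 genes, which overlap with RluA-2 for Sec61alpha and Sec61beta.

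Of the signal peptidase subunits, which cleave the signal peptide, twr, Spase12 and Spase25 fell by 0.23, 0.19 and 0.23 (edgeR adjusted p = 0.00700, 0.0154 and 0.0169), and Spase22-23 had a difference of -0.14 (adjusted p = 0.219). The receptor subunit SrpRalpha fell by 0.19 (adjusted p = 0.0358), while SrpRbeta, which anchors it in the membrane, rose by 0.25 (adjusted p = 0.0420). Only Sec61alpha, Sec61beta, Sec61gamma and twr were called in all 8 fits that left out a library. The median over the 15 genes was -0.14, beside 0.01 over all genes tested.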

How the data were processed

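Psi-seq was run on 22 libraries in 11 pairs, and grouped through the experiment, genotype, treatment and replicate number in their labels. Per the submitters' processing notes and the study's methods, the authors used Trimmomatic 0.33 for trimming, Bowtie2 for alignment to rRNA and spike-in and STAR 2.6.1a for the genome, and counted unique sense read pairs per gene with featureCounts 2.0.0. The deposited gene values are raw counts. The deposited termination counts and coverage are unnormalized, each listed 1 above the number of inserts, and the authors' termination ratio is the fraction of coverage that terminates. Positions without a CMC termination in the pair are not listed, so mock inserts that end there are not counted.

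The z-test took as its variance, with p the pooled proportion, p(1-p) over the CMC coverage plus 1 over the mock coverage, with Benjamini-Hochberg adjustment within a pair. Fold changes were tested with limma 3.58.1, with 0.5 added to terminations and 1 to coverage. Gene counts, with the inserts of 7SL set in their place, were tested with edgeR 4.0.16 (quasi-likelihood, TMM, filterByExpr), with DESeq2 1.42.0 as an alternative. The z-test, limma and edgeR were tried on simulated data, and DESeq2 was not. The simulations of the z-test and limma held counting error only, so they do not give the power at the spread between these samples. CMC and mock libraries of a number come from 1 RNA sample, and deviated together in Exp 2 (r 0.24 to 0.66). In Exp 1 they did so for replicate 1 (r 0.49) and not for replicates 2 and 3 (r -0.28 and -0.18).

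Named positions were those with the highest fold change or CMC ratio, the first and last uridine, the uridines left out, and the largest differences between genotypes. Named genes were both 7SL genes, partners of the particle and head markers. The positions, genes and lists were chosen with earlier results of these data known. The inserts in place of gene counts (with and without the block), the scaling to rRNA, the partner genes by inserts and the pooled variance at limited coverage were added after seeing the data. Symbols came from RefSeq (Release 6). Bases beyond 273 were not used here.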

Additional observations from a re-analysis of the deposited data

Results flagged for a closer look

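In 3 of 64 groups of 4 samples examined, 1 sample stood far from the other 3, and chance gives about 1 in 20. The share of internal mock terminations next to a U was 29.7% in replicate 2 of w1118 in Exp 2 and 27.3 to 27.5% in the others. The log2 fold change at uridine 4 was 0.68 in replicate 3 of w1118 in Exp 2 and 0.93 to 0.96 in the others. The log2 fold change at guanosine 176 was 1.49 in replicate 2 of w1118 in Exp 2 and 1.08 to 1.15 in the others.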

How the results depend on the processing

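The counts of called positions depend on the variance used. With a pooled variance 240 positions were called in w1118 and 265 in RluA-2, and at a coverage of 1000 there were 77 and 76. With the main variance a coverage of 1000 gave 0 (0 uridines, 0 in RluA-2), since 1 over the mock coverage then sets an error above what these ratios can pass, and with calls in at least 6 of 7 pairs 44. Raised positions by limma were 106, 98 and 124 with centred pairs, and leaving out a pair gave 136 to 177, 166 to 205 and 176 to 206. Positions that differ between experiments were 8 at a coverage of at least 1000 and 1 with 5 added to terminations and 10 to coverage, without the shares of all positions beside them. No position was called between the genotypes in any of the alternatives run, and leaving out a pair gave 0.

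The gene count of 7SL between genotypes was -0.48 in CMC libraries and ran from -0.80 to -0.51 without single libraries. Between treatments it was 0.54 without a filter and -0.027 with both genes added in Exp 1, and 0.65 by DESeq2 (adjusted p = 0.0789) in w1118 of Exp 2. By inserts it was -1.13, -0.45 and -0.72 (-0.44 with no replicate block in w1118 of Exp 2, adjusted p = 0.0753), and per 1000 rRNA inserts 0.0044, 0.25 and 0.12. Leaving out a replicate gave 0.26 to 0.71 for the gene count of Exp 1 and -1.51 to -0.79 for its inserts. Between genotypes the inserts gave -0.15 per 1000 rRNA inserts and -0.53 to -0.36 without single libraries. The mock gene count of Exp 2 against Exp 1 gave 0.87 to 1.25 without single libraries. The cause of these changes was not tested. Without single libraries the 5′ coverage differed by 41.0 to 48.6 (mock) and 6.58 to 9.32 points (CMC), and the full-length share by 3.88 to 4.72, at the smallest p that 3 against 4 allows, 0.0571. Srp9 (-0.054 to 0.15), Srp19 (-0.098 to 0.040) and elav (-0.063 to 0.086) changed sign between such fits.

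Replicate numbers of w1118 and RluA-2 share only a number (r -0.05 to 0.03). With a replicate block the gene count gave -0.61 and the inserts -0.45, no position of 7SL was called, and norpA was called (0.21, adjusted p = 0.0198). In Exp 1, CMC 2 went best with mock 3 (r 0.39) and CMC 3 with mock 2 (r 0.52), a hint from the data and not the design. Group means of the log2 fold change do not depend on this pairing, while the calls within those pairs, the values and SDs by pair and the blocked and limma tests of Exp 1 do. Since limma used 1 estimate of the spread for all 11 pairs, the SEs and p-values of its other contrasts take in these pairs too.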
